A study of Mus musculus with 19 samples.

Results

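Microtubules are the main structural filament of a growing axon, and the genes described here encode their subunits and the proteins that bind them. The set holds 37 genes, listed by symbol: 14 tubulins, 8 proteins that bind along the microtubule lattice, 3 members of the doublecortin family, 4 stathmins, 3 CAMSAPs and 5 plus-end binding proteins. Each symbol was looked up in the GRCm38 annotation and found by its Ensembl identifier among the 47069 genes of the count tables. All 37 genes were among the 15941 that passed the filter on low counts.

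The study compared retinal ganglion cells (RGCs) whose axons avoid the midline at the optic chiasm, the ipsilateral RGCs (iRGCs), with those that cross it, the contralateral RGCs (cRGCs). Both populations came from E16.5 embryos of the strain C57/DBA F1, males and females pooled, with the genotype label WT, and all carried a Cre-dependent CAG-[Stop]-Sun1-GFP cassette in the Rosa26 locus. Slc6a4-Cre, a transgene driven by the serotonin transporter gene, marked the iRGCs. Pou4f2-Cre, inserted at the Pou4f2 (Brn3b) locus, marked most RGCs, and the ventrotemporal retina, where iRGCs arise, was cut away from these retinas before GFP-positive cells were sorted as cRGCs. The reporter stays on in every descendant of a cell in which Cre has acted, so a sorted cell need not express the driver gene at the time of sorting. RNA-seq counts of 3 libraries per population were used, named here as replicates 1 to 3.

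Alpha- and beta-tubulin form a dimer that polymerizes into microtubules, and gamma-tubulin seeds new ones. Vertebrates have several genes, or isotypes, for each, whose proteins differ mostly in the acidic tail at the carboxyl end, and neurons use Tubb3 and other isotypes that few other cells make in quantity. Lattice-binding proteins (MAPs) and doublecortins stabilize and space microtubules, stathmins sequester tubulin dimers, CAMSAPs hold minus ends, and EB and CLASP proteins act at growing plus ends.

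The libraries held 28193178, 29759011 and 30874653 reads counted on genes in iRGCs and 28274471, 30454674 and 33638083 in cRGCs. Of these, the 37 genes took 332692, 397836 and 501042 reads in iRGCs, or 1.18, 1.34 and 1.62%. In cRGCs they took 864400, 902729 and 1058011 reads, or 3.06, 2.96 and 3.15%. Levels are given below as CPM (counts scaled to library size) after TMM normalization, a library-wide scaling in edgeR, and always in the order of replicates 1, 2 and 3.

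Libraries labelled iRGC stood apart from each other in the gene of the driver and in vessel and blood markers. Slc6a4, the gene whose promoter drives the iRGC Cre, was at 2.06, 33.4 and 116 CPM in the libraries labelled iRGC and at 48.1, 35.4 and 30.5 CPM in cRGCs, so that the library labelled iRGC replicate 1 was below every cRGC library. The difference between the populations did not pass the test (log2 fold change 0.41, SE 0.93, edgeR adjusted p = 0.768). Zic2, a transcription factor of iRGCs, was at 134, 173 and 157 CPM in iRGCs and at 57, 60.2 and 65.7 CPM in cRGCs, with no overlap, and Pou4f2 was at 74.8, 134 and 98.2 CPM in iRGCs and 191, 196 and 293 CPM in cRGCs. Several vessel and blood genes were highest in iRGC replicate 2. Cdh5, of endothelial cells, was at 15.2, 81.3 and 0.158 CPM, Rgs5, of mural cells, at 3.76, 93.8 and 2.24 CPM and the globin gene Hbb-bs at 7.94, 50 and 7.88 CPM in iRGCs. The count of called members is given below with and without each of these libraries. The sample descriptions give the iRGC libraries a shared code and the cRGC libraries a different one. What the codes stand for is not stated, and they cannot be told apart from the populations.

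Of the 37 genes, 28 were higher in cRGCs and 5 were higher in iRGCs (Tuba1b, Tubb4b, Tubb6, Tubg1 and Map7), and 4 did not pass the test (Tuba1c, Tuba4a, Tuba8 and Map1s). A gene was called at an adjusted p under 0.1 in edgeR's quasi-likelihood test (Benjamini-Hochberg, adjusted for all genes tested). The 33 calls are 89.2% of the set, beside 46.4% of all tested genes, of which 23.1% were higher in cRGCs and 23.3% in iRGCs. Among the 2718 tested genes with a mean of at least 100 CPM, 67.4% were called and 45% were higher in cRGCs. With an absolute log2 fold change above 1 as well, 22 of the 37 were called, 20 higher in cRGCs and 2 in iRGCs (Tubb6 and Map7), beside 23.1% of all tested genes. Without iRGC replicate 1, 28 were higher in cRGCs and 5 in iRGCs, without iRGC replicate 2, 27 and 4, and without iRGC replicate 3, 29 and 5.

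The summed level of the 37 genes was 10700.4, 12297 and 15799 CPM in iRGCs and 33231, 31155 and 34144 CPM in cRGCs. The iRGC mean, 12932 CPM ± 2608 (SD, n = 3), was 39.4% of the cRGC mean, 32843 CPM ± 1532 (SD, n = 3), and all iRGC libraries lay below all cRGC libraries. The median log2 fold change (iRGCs over cRGCs, so that negative values are higher in cRGCs) was -1.20 over the set, with a range from -3.04 to 2.40, and -0.0031 over all tested genes. In such bulk samples, fewer cells of a type and less RNA per cell cannot be told apart. For 35 of the 37 genes the iRGC and cRGC libraries did not overlap, which held for 55.3% of all tested genes.

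**Figure D1:**
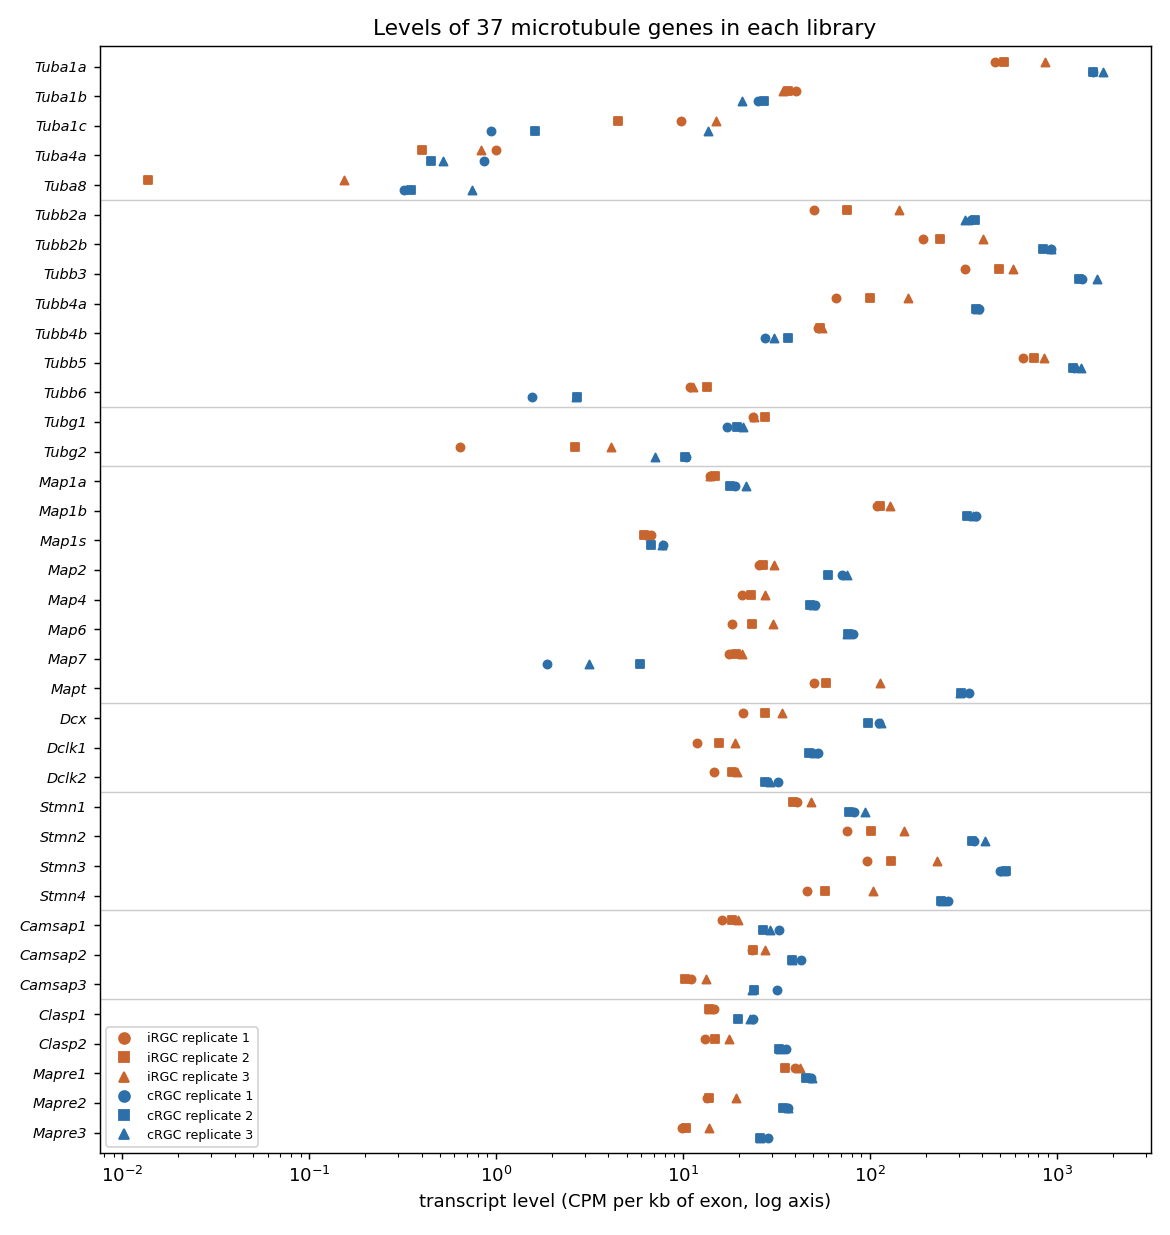
Level of each of the 37 genes in each library, in CPM per kilobase of exon on a log axis, with iRGC libraries in orange and cRGC libraries in blue and a marker shape for each replicate number; Tuba8 had 0 counts in iRGC replicate 1, and that point is not drawn. Genes are grouped by role, and the orange points lie left of the blue ones for most genes, with Tubb4b, Tubb6, Tubg1, Tuba1b and Map7 the other way round.

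Markers of other cells differed in the same libraries. Of 15 tested RGC markers, 13 were higher in cRGCs, 1 (Atoh7, a factor of newly formed RGCs) was higher in iRGCs, and their summed level was 2253, 3200.0 and 4651 CPM in iRGCs and 11973, 10674 and 13266 CPM in cRGCs, or 28.1%. Nefm, a neurofilament subunit and the gene with their highest mean CPM, was at 418, 525 and 974 CPM in iRGCs and 2131, 1809.7 and 2818 CPM in cRGCs. Per kilobase of exon, their most abundant gene was Gap43, also higher in cRGCs. Of 16 retinal progenitor markers, led by the cyclin gene Ccnd1, 13 were higher in iRGCs and 1 in cRGCs, and their summed level was 10195, 9765 and 8535 CPM in iRGCs against 2739, 3702 and 3522 CPM in cRGCs. All 15 markers of cycling cells, led by Top2a, were higher in iRGCs, summing to 4534, 3805 and 3671 CPM against 476, 1072 and 683 CPM.

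Of 10 neurogenic precursor markers, 9 were higher in iRGCs, and the list summed to 2204, 2323 and 2019 CPM in iRGCs and 1364, 1420.0 and 1563 CPM in cRGCs. Sox11, the gene with the highest mean CPM of the list, was the exception, at 726, 801 and 586 CPM in iRGCs and 1052, 881 and 1107 CPM in cRGCs (log2 fold change -0.52, SE 0.14, adjusted p = 0.0173, edgeR). Per kilobase of exon, the most abundant gene of the list was Hes6, which was higher in iRGCs.

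Endothelial markers summed to 448, 649 and 436 CPM in iRGCs and 88.7, 109 and 71.8 CPM in cRGCs, and the 6 of 10 genes that were tested were called. The sum was mostly Kdr, a receptor gene that was at 366, 320.5 and 418 CPM in iRGCs and 83.7, 103 and 67.6 CPM in cRGCs. Pecam1, in contrast, was at 9.65, 53 and 0.284 CPM in iRGCs and 0, 0.725 and 0 CPM in cRGCs. It was thus near 0 in iRGC replicate 3 as in cRGCs, and the same held for Cdh5, Tie1, Tek, Emcn and Esam. Cldn5, Flt1 and Egfl7 were above every cRGC library in iRGC replicate 3. There Cldn5 was at 11.8 CPM, against 0.884, 2.93 and 2.2 CPM in cRGCs. Mural markers (4 of 5 tested higher in iRGCs) summed to 135, 279.6 and 109 CPM against 21.9, 32.6 and 23.3 CPM, led by Notch3 at 113, 117 and 83.5 CPM in iRGCs and 17.1, 26.7 and 18.6 CPM in cRGCs. Kcnj8 and Abcc9, not tested, were at 0, 3.18 and 0.0315 CPM and at 0.386, 26 and 0.221 CPM in iRGCs. Pdgfrb was above every cRGC library in all iRGC libraries. Erythroid markers (4 of 4 tested higher in iRGCs), led by Hbb-bs, summed to 12.2, 92.7 and 15.2 CPM against 0, 5.11 and 0.290 CPM.

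Smaller lists held 4 of 7 tested microglial genes higher in iRGCs (Csf1r most abundant by CPM, C1qa per kilobase of exon). They also held 6 of 7 tested photoreceptor precursor genes higher in iRGCs (Otx2 most abundant on both scales). The other photoreceptor precursor gene tested, Rxrg, was higher in cRGCs, at 22.4, 30.4 and 43.5 CPM in iRGCs and 71.3, 62 and 70.3 CPM in cRGCs. Of 10 amacrine and horizontal cell genes, 7 were higher in iRGCs. Onecut2, with the highest mean CPM of them, did not pass the test, at 150.2, 187 and 119 CPM in iRGCs and 178, 174 and 319.8 CPM in cRGCs. Tfap2b, the most abundant of them per kilobase of exon, was higher in iRGCs. Of 6 optic stalk and astrocyte genes, 2 were tested, and Slc1a3 was higher in iRGCs and Aldh1l1 in cRGCs. The 4 that were not tested, Pax2, Gfap, Aqp4 and S100b, were at no more than 0.87 CPM in any library. Pigment epithelium markers, led by Mitf by CPM and by Pmel per kilobase, summed to 2.03, 7.76 and 3.5 CPM in iRGCs and 1.69, 4.28 and 2.58 CPM in cRGCs. Atoh7 stands in the RGC and the neurogenic lists. The part of any of these cells in the levels of the 37 microtubule genes was not tested.

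**Figure D2:**
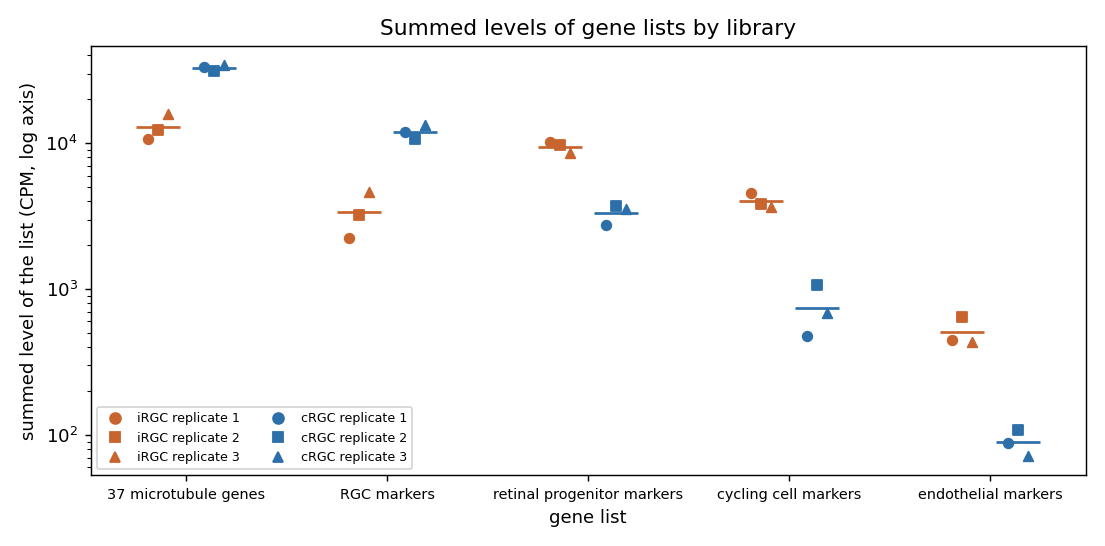
Summed level of 5 gene lists in each library, in CPM on a log axis, with points for libraries (shape by replicate number), horizontal bars for means over 3 libraries, iRGCs in orange and cRGCs in blue. The microtubule and RGC lists are higher in cRGCs and the progenitor, cycling and endothelial lists are higher in iRGCs, with no overlap for any of the 5. Kdr is the largest part of the endothelial sum in each library, with 418 of 436 CPM in iRGC replicate 3.

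The tubulin genes are alike enough in sequence that the count of some depends on few positions. The last 75 coding bases, which end with the stop codon and encode the acidic tail, show where the beta-tubulins diverge. They are printed here for 6 beta-tubulin genes whose shares the results turn on, 5′ to 3′ along the mRNA, all from exon 4 of 4, with coordinates on GRCm38. Capitals mark bases that differ from Tubb5, or have no counterpart in it, in an alignment of the coding sequences, and the sequences are those of the GENCODE M21 transcripts.
Tubb5 (chr17:35834982-35835056, minus strand): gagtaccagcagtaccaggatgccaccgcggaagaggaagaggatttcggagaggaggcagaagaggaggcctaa
Tubb2a (chr13:34074468-34074542, minus strand): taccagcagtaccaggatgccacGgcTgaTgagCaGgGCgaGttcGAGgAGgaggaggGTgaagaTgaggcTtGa
Tubb2b (chr13:34127471-34127545, minus strand): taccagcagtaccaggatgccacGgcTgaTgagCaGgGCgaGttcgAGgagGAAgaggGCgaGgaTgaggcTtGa
Tubb3 (chr8:123421608-123421682, plus strand): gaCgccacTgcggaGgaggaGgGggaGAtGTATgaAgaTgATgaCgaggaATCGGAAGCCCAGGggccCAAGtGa
Tubb4a (chr17:57080690-57080764, minus strand): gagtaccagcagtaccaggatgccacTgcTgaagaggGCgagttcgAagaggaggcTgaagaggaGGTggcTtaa
Tubb4b (chr2:25222308-25222382, minus strand): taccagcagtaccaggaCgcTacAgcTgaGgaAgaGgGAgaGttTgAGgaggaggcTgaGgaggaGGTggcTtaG

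Of these 75 bases 35 are so marked in Tubb3, 20 in Tubb4b, 19 in Tubb2b, 18 in Tubb2a and 10 in Tubb4a, inserted bases included. Over the whole coding sequence, Tuba1a and Tuba1b were 98.3% identical, with 23 differing positions and an identical run of 281 bases. Tuba1b and Tuba1c were 97.9% identical and Tubb2a and Tubb2b 96.5%, with identical runs of 468 and 551 bases. Every other pair of the 7 beta-tubulins was 80.2 to 85.7% identical.

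Only reads that aligned to a single place were counted, so the share of each transcript that is unique bears on how many of its reads could count. Of all 50-base windows of the transcripts, the length of the reads, 12.9% of those of Tuba1b matched neither another place in the genome nor a transcript of a gene elsewhere, as did 34.5% of those of Tuba1a and 45.4% of those of Tuba1c. The share was 50.4% for Tubb2a, 52.7% for Tubb2b, 55.5% for Stmn1 and 56.9% for Tubb4b. It was 81.1% for Camsap1, 84.8% for Tubg1, 85.7% for Tubg2, 88.8% for Tubb3, 94.3% for Mapre1 and at least 98.3% for the other genes. Levels of the less unique genes are thus understated against other genes, and their fold changes come from the unique bases. Whether the loss was alike in every library was not tested. Over all genes, alignments that were not unique made up 29.6, 30.5 and 33.0% of the tallied alignments and unaligned reads in iRGCs and 25.9, 28.2 and 28.2% in cRGCs, with no overlap. Windows were compared as exact matches to the reference, without the DBA alleles.

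**Figure D3:**
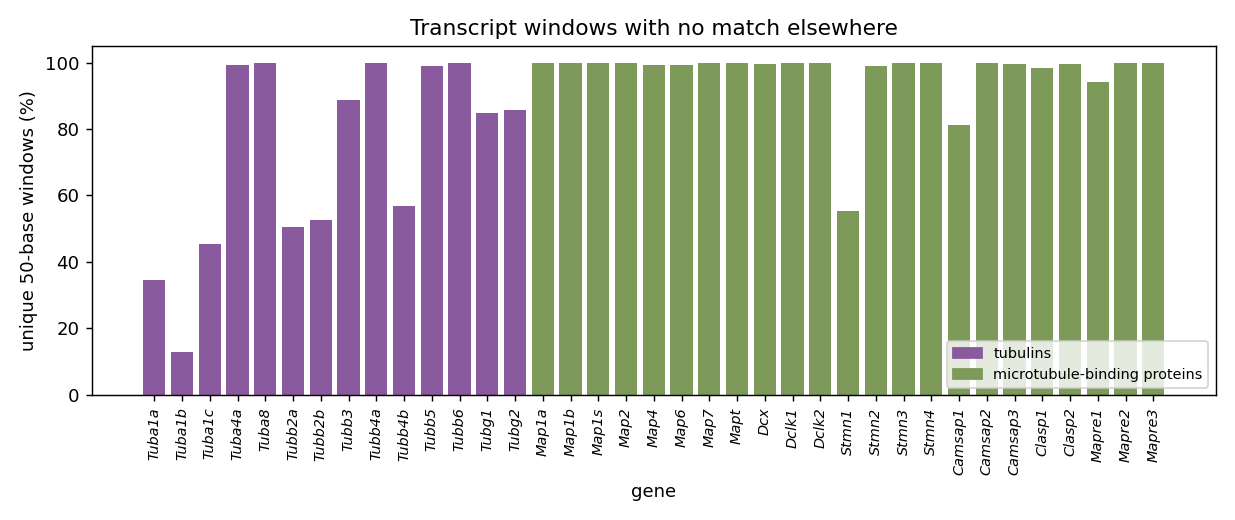
Share (%) of the 50-base windows of each gene's transcripts that match neither another place in the genome nor a transcript of a gene elsewhere, with tubulins in purple and microtubule-binding proteins in green. Tuba1b is lowest at 12.9%, and the bars of Tuba1a, Tuba1c, Tubb2a, Tubb2b, Stmn1 and Tubb4b lie below 60%.

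Among the 5 alpha-tubulin genes, Tuba1a was higher in cRGCs and Tuba1b higher in iRGCs, and Tuba1c, Tuba4a and Tuba8 did not pass the test. Tuba1a (ENSMUSG00000072235, chr15:98949837-98953703, minus strand) encodes the main alpha-tubulin of young neurons. It was at 846, 942 and 1562 CPM in iRGCs and 2832.5, 2827 and 3185 CPM in cRGCs. All iRGC libraries were below all cRGC libraries, the nearest being iRGC replicate 3, and the gene was 2.64-fold higher in cRGCs (log2 fold change -1.40, SE 0.21, adjusted p = 0.00104, edgeR). Tuba1b (ENSMUSG00000023004, chr15:98931425-98934565, minus strand), expressed in most dividing and non-dividing cells, was at 75.3, 68.1 and 64.3 CPM in iRGCs and 47.2, 50.8 and 38.7 CPM in cRGCs. Its libraries separated the other way, by 1.52-fold (log2 fold change 0.61, SE 0.14, adjusted p = 0.00791, edgeR).

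Tuba1c (ENSMUSG00000043091, chr15:99029891-99038110, plus strand), a close relative of both, was at 22.4, 10.3 and 34.6 CPM in iRGCs and 2.15, 3.69 and 31.4 CPM in cRGCs. The cRGC libraries ran from the lowest to nearly the highest of all 6, and the difference did not pass the test (log2 fold change 0.85, SE 0.87, adjusted p = 0.488, edgeR). Without cRGC replicate 3 its log2 fold change was 2.93 and it was called, with an adjusted p of 0.00595 in edgeR, and it was also called with the replicate number as a block (adjusted p = 0.0853, edgeR). Tuba4a, an alpha-tubulin of mature tissues, was at 3.7, 1.48 and 3.09 CPM in iRGCs and 3.19, 1.66 and 1.94 CPM in cRGCs, with overlap, and 37.3% of its exonic bases are shared with Stk16. Tuba8, with 16.3% of its exonic bases shared with Gm15856, was the least abundant member. It was at 0, 0.0309 and 0.347 CPM in iRGCs and 0.73, 0.794 and 1.68 CPM in cRGCs. Its libraries did not overlap, yet its edgeR adjusted p was 0.136, and over 12 alternatives it ranged from 0.0436 to 0.365. It was called by DESeq2, by limma voom and, in edgeR, without iRGC replicate 3, where its log2 fold change was -5.77 with 0 and 1 reads left in iRGCs.

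As a share of the alpha-tubulin pool (counts per kilobase of exon over the 5 genes), Tuba1a made up 90.2, 92.7 and 94.5% in iRGCs and 98.3, 98.2 and 98% in cRGCs. Tuba1b made up 7.72, 6.45 and 3.74% and 1.57, 1.7 and 1.14%. Both shares separated the populations without overlap. Divided by unique windows in place of exon length, the means were 84.8% ± 4.46 and 96% ± 0.438 (SD, n = 3) for Tuba1a and 14.1% ± 4.47 and 3.74% ± 0.718 (SD, n = 3) for Tuba1b. No test was made of any share.

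Of the 7 beta-tubulin genes, 5 were higher in cRGCs (Tubb2a, Tubb2b, Tubb3, Tubb4a and Tubb5) and 2 in iRGCs (Tubb4b and Tubb6). Tubb3 (ENSMUSG00000062380, chr8:123411424-123422015, plus strand) encodes the beta-tubulin used as a marker of neurons. Its level was 607, 916 and 1089 CPM in iRGCs and 2542, 2468 and 3066.5 CPM in cRGCs. Relative to their mean, the iRGC libraries spread more widely than the cRGC libraries but stayed below them, and the gene was 3.09-fold higher in cRGCs (log2 fold change -1.63, SE 0.20, adjusted p = 0.000425, edgeR). Tubb2b (ENSMUSG00000045136, chr13:34126748-34130466, minus strand), needed for neuronal migration in the cortex, was at 443, 546 and 927 CPM in iRGCs and 2135, 1949 and 2139 CPM in cRGCs (log2 fold change -1.70, SE 0.24, adjusted p = 0.000745, edgeR). Its neighbour Tubb2a (ENSMUSG00000058672, chr13:34074274-34078007, minus strand) was at 80.9, 122 and 231 CPM in iRGCs and 559.9, 588 and 522 CPM in cRGCs (log2 fold change -1.94, SE 0.32, adjusted p = 0.00158, edgeR). Both genes shared the order of libraries within iRGCs, lowest in replicate 1 and highest in replicate 3.

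Tubb4a (ENSMUSG00000062591, chr17:57080066-57087782, minus strand), a beta-tubulin of the nervous system, had levels of 147, 223 and 357 CPM in iRGCs and 853, 824 and 841 CPM in cRGCs. The cRGC libraries lay within a narrow band, and the difference was 3.47-fold (log2 fold change -1.79, SE 0.27, adjusted p = 0.000979, edgeR). Tubb5 (ENSMUSG00000001525, chr17:35833921-35838306, minus strand), made in most cells of the embryo, was at 2189, 2517 and 2854 CPM in iRGCs and 4108, 4072 and 4523 CPM in cRGCs. It differed least of the 5, by 1.68-fold (log2 fold change -0.75, SE 0.12, adjusted p = 0.0013, edgeR).

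The other beta-tubulins ran the opposite way. Tubb6 (ENSMUSG00000001473), found mostly outside neurons, was at 26.6, 32.8 and 27.6 CPM in iRGCs and 3.81, 6.59 and 6.55 CPM in cRGCs. Its lowest iRGC library was above its highest cRGC library, and it was 5.12-fold higher in iRGCs (log2 fold change 2.36, SE 0.25, adjusted p = 0.000258, edgeR). Tubb4b (ENSMUSG00000036752, chr2:25222160-25224702, minus strand), a broadly expressed isotype that cilia use, was at 111, 113 and 116 CPM in iRGCs and 57.4, 76 and 64.2 CPM in cRGCs. It was 1.72-fold higher in iRGCs (log2 fold change 0.78, SE 0.13, adjusted p = 0.00136, edgeR), with iRGC libraries within a few percent of each other. Of its exonic bases, 5.80% are shared with Fam166a. The summed progenitor and cycling markers given above were also higher in all iRGC than in all cRGC libraries, and their part in the levels of Tubb6, Tubb4b and Tuba1b was not tested.

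**Figure D4:**
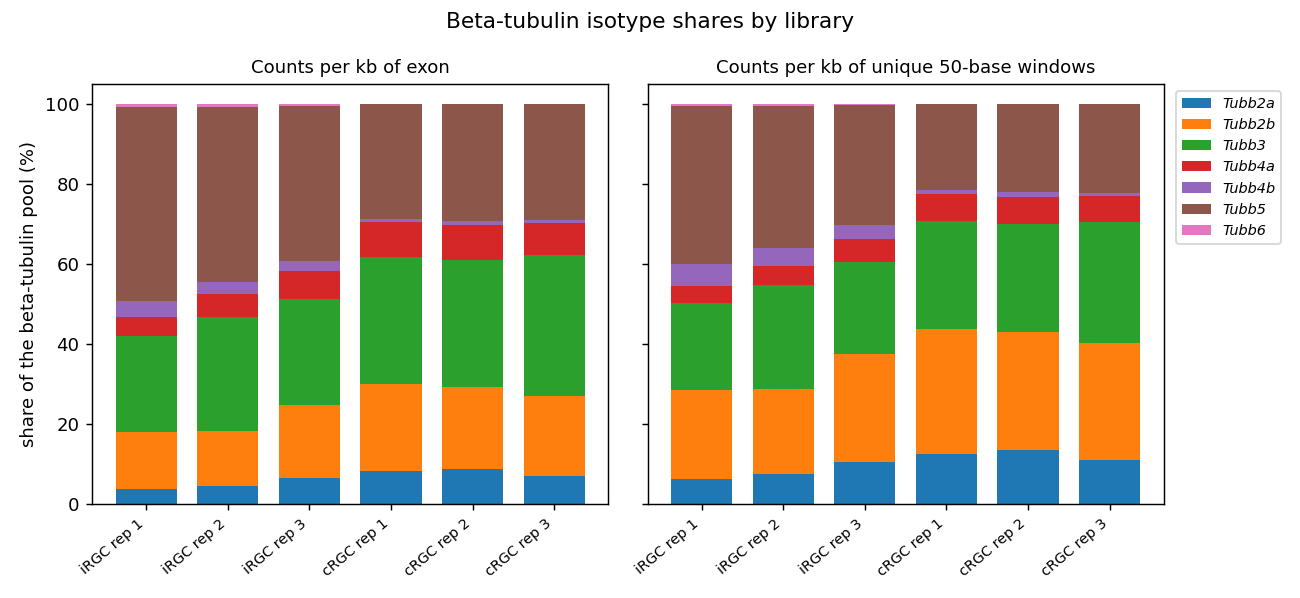
Share (%) of each beta-tubulin isotype in the summed beta-tubulin level of each library, with counts divided by exon length on the left and by the number of unique 50-base windows on the right. With either length, Tubb5 takes a larger share in iRGCs and Tubb2a, Tubb2b, Tubb3 and Tubb4a take larger shares in cRGCs.

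The make-up of the beta-tubulin pool differed as well as its size. The summed level per kilobase of exon was 1356, 1728 and 2215 CPM per kilobase in iRGCs and 4286, 4169 and 4669 CPM per kilobase in cRGCs. Tubb5 made up 48.5, 43.8 and 38.7% of it in iRGCs and 28.8, 29.4 and 29.1% in cRGCs. It was the largest share in each iRGC library. In each cRGC library Tubb3 was the largest on this scale, with 31.8, 31.7 and 35.2% there and 24, 28.4 and 26.3% in iRGCs. Tubb2b averaged 15.4% ± 2.45 in iRGCs and 20.7% ± 0.911 in cRGCs, and Tubb4a 5.96% ± 1.19 and 8.63% ± 0.473 (SD, n = 3). Tubb4b took a larger share in iRGCs, with 3.18% ± 0.704 in iRGCs and 0.724% ± 0.129 in cRGCs (SD, n = 3), as did Tubb6 with 0.698% ± 0.163 and 0.053% ± 0.0148 (SD, n = 3).

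Other lengths changed the shares but not the direction of any difference between the populations. Divided by the longest transcript, Tubb5 made up 53.1, 48.6 and 43.5% in iRGCs and 33.3, 33.9 and 33.6% in cRGCs, and Tubb3 29.2, 29.1 and 32.4% in cRGCs, so that Tubb5 was the largest share in all 6 libraries. With unique windows, Tubb5 averaged 35% ± 4.71 in iRGCs and 22% ± 0.331 in cRGCs, and Tubb2b 23.6% ± 3.1 and 30% ± 1.1 (SD, n = 3). On this scale Tubb2b, at 31.2, 29.4 and 29.3%, was the largest share in cRGC replicates 1 and 2, and Tubb3, at 26.9, 26.9 and 30.3%, was the largest in replicate 3. Which isotype was the largest in cRGCs therefore depended on the length used.

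The gamma-tubulins, which seed microtubules from centrosomes and other sites, went in opposite directions. Tubg1 (ENSMUSG00000035198, chr11:101119938-101126419, plus strand), the copy expressed in all tissues, was at 54, 62.3 and 54.2 CPM in iRGCs and 39.2, 44.2 and 47.7 CPM in cRGCs. Its difference was the smallest called in favour of iRGCs, 1.3-fold (log2 fold change 0.38, SE 0.13, adjusted p = 0.0458, edgeR), and it was lost without iRGC replicate 2, cRGC replicate 1 or cRGC replicate 2, with adjusted p up to 0.159 in edgeR. Tubg2 (ENSMUSG00000045007, chr11:101155907-101161787, plus strand), the copy found mainly in brain, was at 1.13, 4.67 and 7.28 CPM in iRGCs and 18.3, 18 and 12.5 CPM in cRGCs. It was 3.73-fold higher in cRGCs (log2 fold change -1.90, SE 0.55, adjusted p = 0.0237, edgeR), and its log2 fold change was -1.44 without iRGC replicate 1 and -2.49 without iRGC replicate 3. Per kilobase of exon, Tubg1 exceeded Tubg2 in every library.

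Of the 8 lattice-binding MAPs, 6 were higher in cRGCs (Map1a, Map1b, Map2, Map4, Map6 and Mapt), Map7 was higher in iRGCs and Map1s did not pass the test. Their summed level in iRGCs was 35.1% of that in cRGCs. Mapt (ENSMUSG00000018411, chr11:104231390-104332090, plus strand) encodes tau, the MAP of axons, and was at 379, 438 and 853 CPM in iRGCs and 2569, 2331 and 2301 CPM in cRGCs. iRGC replicate 3 was far above the other iRGC libraries and still below all cRGC libraries, and the gene was 4.31-fold higher in cRGCs (log2 fold change -2.11, SE 0.28, adjusted p = 0.000525, edgeR). Map1b (ENSMUSG00000052727, chr13:99421446-99516540, minus strand), an early MAP of growing axons, was at 1728.5, 1802 and 2041 CPM in iRGCs and 5867, 5249.9 and 5634 CPM in cRGCs. Both groups spread little around their means, and Map1b had the smallest edgeR adjusted p of the set (log2 fold change -1.59, SE 0.11, adjusted p = 0.000201).

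Map2 (ENSMUSG00000015222, chr1:66175273-66442583, plus strand), which marks dendrites and cell bodies, was at 422, 444 and 508 CPM in iRGCs and 1174, 986 and 1236.5 CPM in cRGCs (log2 fold change -1.30, SE 0.12, adjusted p = 0.000211, edgeR). Map6 (ENSMUSG00000055407, chr7:99267447-99337137, plus strand), which makes microtubules stable to cold, was at 168, 214 and 279 CPM in iRGCs and 746, 697 and 691 CPM in cRGCs (log2 fold change -1.69, SE 0.17, adjusted p = 0.000238, edgeR). Neither overlapped between the populations. Map4, the broadly expressed relative of Map2 and tau, was at 312, 352 and 419 CPM in iRGCs and 773, 728 and 750.5 CPM in cRGCs, a 2.08-fold difference (log2 fold change -1.06, SE 0.12, adjusted p = 0.000332, edgeR). Map1a, the relative of Map1b that dominates in mature neurons, differed less, with 169, 181 and 169 CPM in iRGCs and 231, 218 and 264 CPM in cRGCs (log2 fold change -0.46, SE 0.11, adjusted p = 0.00851, edgeR). Map1s, the short family member, was at 53.6, 49.1 and 52.6 CPM in iRGCs and 62.2, 53.6 and 61.7 CPM in cRGCs, without overlap but with an edgeR adjusted p of 0.239.

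Map7 (ENSMUSG00000019996, chr10:20148471-20281590, plus strand), which recruits kinesin-1 to microtubules, was the member with the largest difference in favour of iRGCs. It was at 139.5, 153 and 165 CPM in iRGCs and 14.8, 47 and 24.9 CPM in cRGCs. Its cRGC libraries differed among themselves more than its iRGC libraries did, and it was 5.26-fold higher in iRGCs (log2 fold change 2.40, SE 0.35, adjusted p = 0.000859, edgeR).

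**Figure D5:**
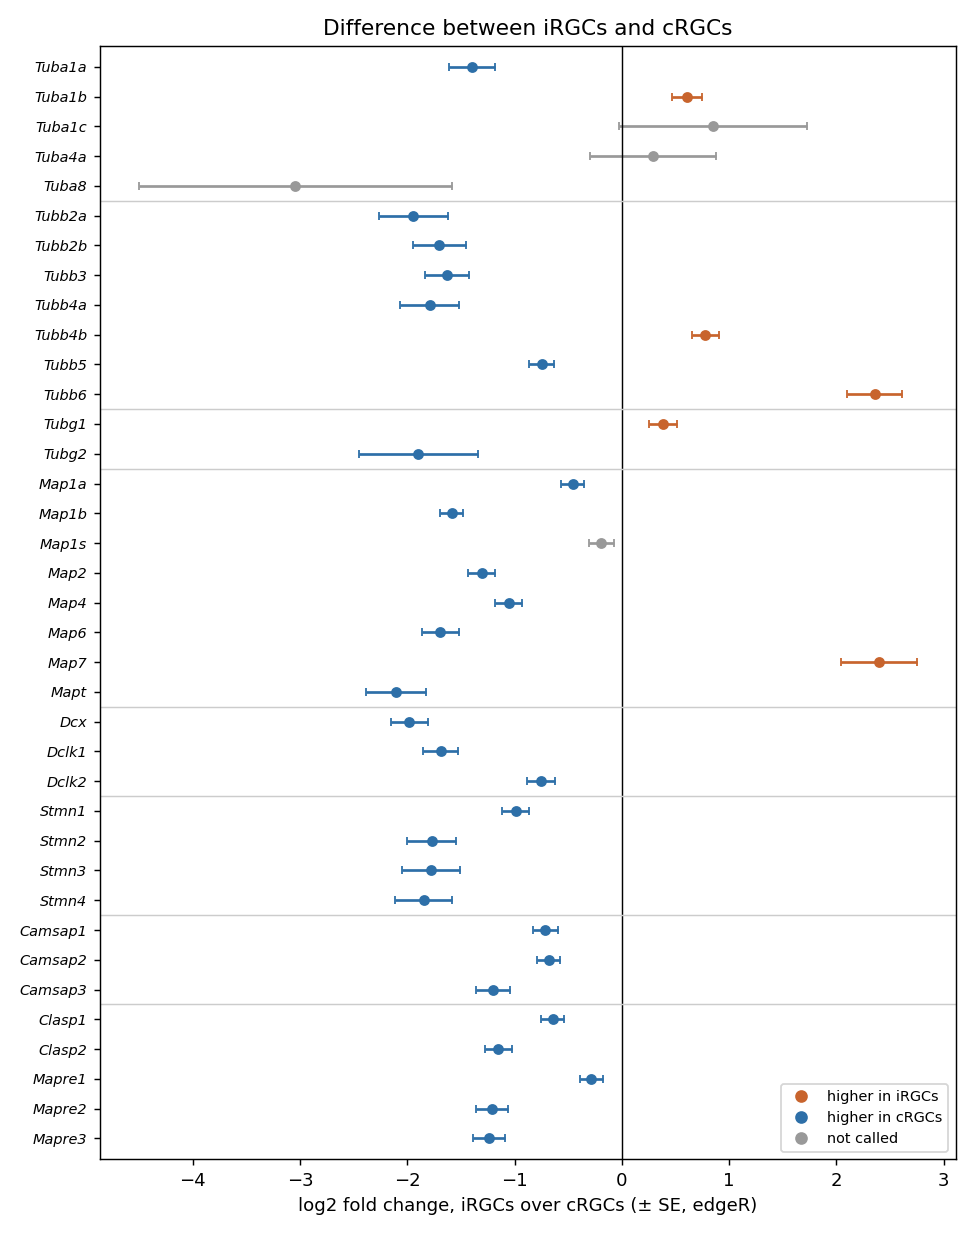
Log2 fold change (iRGCs over cRGCs) of each gene with its SE from edgeR, in orange where higher in iRGCs, in blue where higher in cRGCs and in grey where not called. The 28 blue points run from -0.28 for Mapre1 to -2.11 for Mapt, and the 5 orange points from 0.38 for Tubg1 to 2.40 for Map7.

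All 3 genes of the doublecortin family were higher in cRGCs, with a summed level in iRGCs of 31.4% of that in cRGCs. Dcx (ENSMUSG00000031285, chrX:143855842-143933311, minus strand), a microtubule stabilizer of migrating and newly formed neurons, was at 264, 349.6 and 428 CPM in iRGCs and 1424, 1239.8 and 1451.5 CPM in cRGCs. The populations were far apart, by 3.95-fold (log2 fold change -1.98, SE 0.17, adjusted p = 0.000205, edgeR). Dclk1 and Dclk2 join a doublecortin part to a kinase. Dclk1 was at 182, 238 and 292 CPM in iRGCs and 805, 721 and 769 CPM in cRGCs (log2 fold change -1.69, SE 0.17, adjusted p = 0.00022, edgeR). Dclk2, with 155, 195 and 207 CPM in iRGCs and 339, 292 and 309.5 CPM in cRGCs, differed less (log2 fold change -0.76, SE 0.13, adjusted p = 0.00184, edgeR), though its libraries did not overlap either.

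All 4 stathmins were higher in cRGCs, and their summed level in iRGCs was 30.1% of that in cRGCs. Stmn2 (ENSMUSG00000027500, chr3:8509360-8561606, plus strand), also called SCG10 and present in growth cones, was at 423, 571 and 858 CPM in iRGCs and 2019, 1981 and 2328 CPM in cRGCs. It was 3.42-fold higher in cRGCs (log2 fold change -1.77, SE 0.23, adjusted p = 0.000493, edgeR). Stmn3 (ENSMUSG00000027581, chr2:181306459-181314500, minus strand) was at 109.8, 147 and 259.7 CPM in iRGCs and 565, 612 and 598 CPM in cRGCs (log2 fold change -1.78, SE 0.27, adjusted p = 0.00103, edgeR). Stmn4 (ENSMUSG00000022044, chr14:66344296-66361680, plus strand) was at 88, 111 and 199 CPM in iRGCs and 502, 460.2 and 468 CPM in cRGCs (log2 fold change -1.85, SE 0.27, adjusted p = 0.000769, edgeR). These 3 neuronal stathmins, anchored to membranes, had log2 fold changes within 0.1 of each other and the same order of iRGC libraries.

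Stmn1 (ENSMUSG00000028832, chr4:134468320-134473843, plus strand), the soluble stathmin that dividing cells also express, was at 78.2, 75 and 93 CPM in iRGCs and 158, 149.6 and 182 CPM in cRGCs. It differed least of the 4, by 1.99-fold (log2 fold change -0.99, SE 0.13, adjusted p = 0.000481, edgeR), and 3.43% of its exonic bases are shared with Gm23634. Of the summed stathmin level per kilobase of exon, Stmn1 made up 15.7, 11.9 and 9.06% in iRGCs and 6.82, 6.43 and 7.4% in cRGCs, without overlap. The shares of Stmn2, Stmn3 and Stmn4 overlapped between the populations, for example 37.4, 39.4 and 42.8% in iRGCs and 41.4, 44.5 and 41.1% in cRGCs for Stmn3.

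The CAMSAPs, which cap and stabilize microtubule minus ends away from the centrosome, were all higher in cRGCs, with an iRGC sum of 58% of the cRGC sum. Camsap3 was at 67.9, 62.5 and 81 CPM in iRGCs and 196, 146 and 143 CPM in cRGCs (log2 fold change -1.20, SE 0.16, adjusted p = 0.000516, edgeR). It shares 9.32% of its exonic bases with Xab2, and whether counting used strand is not given in the sources used here. Camsap1 was at 135, 154 and 165 CPM in iRGCs and 274, 226 and 245 CPM in cRGCs (log2 fold change -0.71, SE 0.12, adjusted p = 0.00163, edgeR). Camsap2, the most abundant per kilobase, was at 216, 219 and 252 CPM in iRGCs and 395, 355 and 351 CPM in cRGCs (log2 fold change -0.68, SE 0.11, adjusted p = 0.00124, edgeR). None of the 3 overlapped between the populations.

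All 5 plus-end genes were higher in cRGCs, and their sum in iRGCs was 57% of that in cRGCs. Clasp1 and Clasp2 encode proteins that rescue shrinking microtubules. Clasp2 was at 201, 229.6 and 271 CPM in iRGCs and 546, 502 and 511 CPM in cRGCs (log2 fold change -1.15, SE 0.13, adjusted p = 0.000266, edgeR). Clasp1 was at 321, 303 and 303 CPM in iRGCs and 517, 431 and 501 CPM in cRGCs, with a smaller difference (log2 fold change -0.65, SE 0.11, adjusted p = 0.00145, edgeR). The EB proteins track growing ends and recruit others to them.

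Mapre3 (ENSMUSG00000029166, chr5:30814641-30866106, plus strand), which encodes the EB protein most typical of neurons, was at 34.4, 36.2 and 47.5 CPM in iRGCs and 99.3, 89.5 and 89.2 CPM in cRGCs (log2 fold change -1.24, SE 0.15, adjusted p = 0.00037, edgeR). Mapre2 (ENSMUSG00000024277) was at 137, 141 and 196 CPM in iRGCs and 373, 352 and 372 CPM in cRGCs (log2 fold change -1.21, SE 0.15, adjusted p = 0.000376, edgeR). The ubiquitous Mapre1 (ENSMUSG00000027479, chr2:153741274-153773310, plus strand) had the smallest called difference of the 37 genes, with 310.0, 275 and 332 CPM in iRGCs and 379, 356 and 382 CPM in cRGCs. Its edgeR adjusted p was 0.0602 (log2 fold change -0.28, SE 0.11), and over the alternatives it ranged from 0.0212 to 0.209. The call was lost without the filter on low counts, and without iRGC replicate 2, cRGC replicate 1, cRGC replicate 2 or cRGC replicate 3.

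Levels can be ordered across genes once divided by exon length. Per kilobase of exon, the leading genes in cRGCs were Tuba1a at 1635.1 ± 113.9 CPM per kilobase, Tubb3 at 1441 ± 175 and Tubb5 at 1273 ± 75.4 (SD, n = 3). Tubb2b followed at 904 ± 47.2 and Stmn3 at 521 ± 21 CPM per kilobase, and next Tubb4a at 377 ± 6.7, Stmn2 at 376 ± 33.9, Map1b at 352 ± 19.7, Tubb2a at 346 ± 20.7 and Mapt at 319 ± 19.5 (SD, n = 3). In iRGCs Tubb5 led at 757 ± 99.9, followed by Tuba1a at 619 ± 216, Tubb3 at 466 ± 131, Tubb2b at 278 ± 111 and Stmn3 at 152 ± 68.7 CPM per kilobase (SD, n = 3). Neighbours in these orders often overlapped over their libraries. In cRGCs this held for Tuba1a with Tubb3, Tubb3 with Tubb5, and each neighbouring pair from Tubb4a to Mapt, and in iRGCs for each neighbouring pair of the 5 named. The levels of Tuba1a, Tubb2a and Tubb2b are understated here by their shared windows. The lead of Tubb5 over Tuba1a in iRGCs is thus one for exon length, as 34.5% of the windows of Tuba1a and 98.9% of those of Tubb5 were unique.

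For most called members, the iRGC libraries varied more than the cRGC libraries. Over the 33 called genes, the median coefficient of variation of the CPM was 14.9% in iRGCs and 6.97% in cRGCs. It was larger in iRGCs for 24 genes and larger in cRGCs for 9. Among those larger in cRGCs were all the members higher in iRGCs (Tuba1b, Tubb4b, Tubb6, Tubg1 and Map7). Of the 28 genes higher in cRGCs, 26 (92.9%) were highest among iRGC libraries in replicate 3 and 23 (82.1%) were lowest in replicate 1. Over all 3688 tested genes higher in cRGCs, 70.3% were highest in iRGC replicate 3 and 66% lowest in iRGC replicate 1. The summed RGC markers were likewise lowest in replicate 1 and highest in replicate 3, whereas the cycling and progenitor markers were highest in iRGC replicate 1 and lowest in iRGC replicate 3. Alignments on no gene were 14.6, 13.9 and 8.09% of the tallied alignments and unaligned reads in iRGCs and 16.8, 12.9 and 13.0% in cRGCs, lowest in iRGC replicate 3. These libraries thus differed by more than their microtubule genes, and the part of these measures in this order was not tested.

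Other genes of the pathway were read from 7 lists with 101 genes, of which 99 were tested (Ttll6 and Agbl1 had too few counts). Of the 99, 47 were higher in cRGCs, 17 were higher in iRGCs and 35 did not pass, so that 64.6% were called, beside 46.4% of all tested genes. Their median log2 fold change was -0.28. The 17 genes of the gamma-tubulin ring and augmin complexes, which nucleate microtubules, held 8 higher in iRGCs and 9 that did not pass, with a median log2 fold change of 0.26. Nedd1, which brings the ring complex to centrosomes, was at 65.5, 61.2 and 53.3 CPM in iRGCs and 14, 21.6 and 19.9 CPM in cRGCs (log2 fold change 1.70, SE 0.19, adjusted p = 0.000266, edgeR). Mzt1, the most abundant per kilobase, was at 72.2, 83.8 and 95.2 CPM in iRGCs and 83.7, 89 and 89.4 CPM in cRGCs, with an edgeR adjusted p of 0.748. Severing enzymes were mixed, with 4 of 9 higher in iRGCs and 1 in cRGCs. Fignl1, a relative of fidgetin, was at 87.1, 111 and 89.2 CPM in iRGCs and 13.9, 30.7 and 22 CPM in cRGCs (log2 fold change 2.11, SE 0.26, adjusted p = 0.000418, edgeR). Spast, the spastin gene, was the call in the other direction, at 226, 237 and 230.0 CPM in iRGCs and 337, 311 and 360.4 CPM in cRGCs (log2 fold change -0.54, SE 0.10, adjusted p = 0.00248, edgeR).

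The remaining lists held more genes higher in cRGCs than in iRGCs. Of 19 tested enzymes that modify tubulin tails or acetylate tubulin, 12 were higher in cRGCs and 2 in iRGCs. Atat1, the alpha-tubulin acetyltransferase, was at 130.4, 136 and 165 CPM in iRGCs and 345, 324 and 342 CPM in cRGCs (log2 fold change -1.23, SE 0.12, adjusted p = 0.000207, edgeR), with 14% of its exonic bases shared with Gm16279. The glutamylase gene Ttll7 was at 27.7, 33.6 and 37.7 CPM in iRGCs and 124, 108 and 118 CPM in cRGCs (log2 fold change -1.82, SE 0.14, adjusted p = 0.000205, edgeR). Its relative Ttll4 went the other way, at 178, 181 and 141 CPM in iRGCs and 91.4, 86.3 and 87.5 CPM in cRGCs (log2 fold change 0.91, SE 0.12, adjusted p = 0.000575, edgeR). Among 15 other plus-end proteins and polymerases, 10 were higher in cRGCs and 5 did not pass. Apc2, a neuronal relative of Apc, was at 233, 239.9 and 326 CPM in iRGCs and 1021, 834 and 941 CPM in cRGCs (log2 fold change -1.81, SE 0.15, adjusted p = 0.000205, edgeR). Clip3, the most abundant of them per kilobase, differed less (log2 fold change -0.62, SE 0.13).

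Of 11 kinases and activators that act on MAPs, 8 were higher in cRGCs and 3 did not pass. Cdk5r1, an activator of Cdk5, was at 162, 177 and 255 CPM in iRGCs and 617, 574 and 594 CPM in cRGCs (log2 fold change -1.59, SE 0.17, adjusted p = 0.000245, edgeR). The second activator, Cdk5r2, was at 16.9, 19 and 37.9 CPM in iRGCs and 93.3, 102 and 100.1 CPM in cRGCs (4-fold, edgeR adjusted p = 0.000706). Both were without overlap between the populations. Of 21 other MAPs, 12 were higher in cRGCs and 3 in iRGCs. Jpt1, the most abundant per kilobase, was 1.84-fold higher in cRGCs (log2 fold change -0.88, SE 0.12). At low levels, the called genes with the largest changes were Dclk3, at 0.933, 2.07 and 5.64 CPM in iRGCs and 15.7, 9.39 and 13.4 CPM in cRGCs, and Map7d3, at 9.2, 3.28 and 3.69 CPM and 0.961, 1 and 1.77 CPM. Of the 7 tubulin folding cofactors, 4 were higher in cRGCs and 3 did not pass, with Tbcd at 78.7, 77.5 and 88.8 CPM in iRGCs and 142, 138 and 149 CPM in cRGCs (log2 fold change -0.81, SE 0.10, adjusted p = 0.000489, edgeR) and Tbca, the most abundant per kilobase, not past the test at an edgeR adjusted p of 0.427.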

How the data were processed

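The RNA of Sun1-GFP-positive cells, isolated by FACS at E16.5, had been sequenced in 3 libraries per population. ATAC-seq data (13 samples) were not analysed here. Per the submitters' processing notes and the study's methods, the authors aligned the 50-base reads to mm10 with HISAT2 2.1.0 and counted uniquely aligned reads on Ensembl genes of GRCm38 with HTSeq 0.11.1, and they deposited raw counts per gene, without normalization. Whether counting used strand is not given in the sources used here. Of the tallied alignments and unaligned reads together, 8.09 to 16.8% overlapped no gene, 0.618 to 0.649% were ambiguous and 25.9 to 33.0% were not unique. These tallies stayed out of library sizes and tests. GENCODE M21 (GRCm38) gave symbols, coordinates and exons for 46574 of the 47069 deposited identifiers.

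Counts were tested with edgeR 4.0.16 in R 4.3.3 (filterByExpr, TMM, quasi-likelihood test without a block, two-sided, Benjamini-Hochberg adjustment over 15941 genes, called at an adjusted p under 0.1). SEs were derived from the log2 fold change and the F statistic. TMM gave iRGC libraries factors of 1.03 to 1.10 and cRGC libraries 0.921 to 0.952. The biological coefficient of variation, from the dispersion common to all tested genes, was 36.3%. Replicate libraries differed by far more than sampling noise (chi-square per degree of freedom 25.2 to 69.4). Nothing in the labels says that replicates came from separate litters, so the p-values measure the spread between these samples, which may be technical.

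CPM were divided by the union of exons, the longest transcript or the number of unique 50-base windows for isotype shares. Windows were searched as exact matches on both strands of the GRCm38 genome and in the transcripts of genes at other places, and a window repeated within its own gene was not counted as unique. Alternatives were DESeq2 1.42.0, DESeq2 or upper quartile size factors, limma voom (limma 3.58.1), no filter or at least 10 counts in every library, a replicate block, each library left out in turn, an adjusted p under 0.05, and an absolute log2 fold change above 1. The edgeR fit was tested on simulated data. It called 43.3% of genes with an absolute log2 fold change of 1, 78.7% at 2 and 84.8% at 3. Of unchanged genes, it called 0.112%. All 37 genes are named. Of each other pathway list, the text names the gene most abundant per kilobase. In each direction, it also names the called gene with the largest fold change and a mean of at least 1 CPM. Of each cell type list it names the gene with the highest mean CPM and, where different, the gene most abundant per kilobase. Some items are not reported here. Pou4f2, Slc6a4 and Zic2 were added to check the labels, and further vessel, blood and optic stalk genes after their values were seen. The genes and lists were chosen with earlier results of these data known. Python 3.11.15 with matplotlib 3.10.9 drew the figures.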

Additional observations from a re-analysis of the deposited data

How the results depend on the processing

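With each of the 37 genes set against the other fits, scalings, filters, the block and the left-out libraries, 467 values kept the direction and the side of the threshold, 8 lost the call, 5 gained it and 0 reversed. The changes were those of Tuba1c, Tuba8, Tubg1 and Mapre1, and their cause was not tested. The count of called members was 33, and 31 to 34 with single libraries left out. Over all tested genes it was 7395, and 6303 to 7603 with single libraries left out, and over the other pathway genes 64, and 55 to 65. Leaving out a library of either population leaves 2 of its libraries, which lowers the power of the test. Without iRGC replicate 3 the counts nevertheless rose, to 34 members, 7603 genes in all and 65 other pathway genes, and why was not tested. An adjusted p under 0.05 left 32 members called. Requiring an absolute log2 fold change above 1 as well left 22 members, 3688 genes and 31 other pathway genes, by construction. Same-numbered libraries did not deviate together (correlations of deviations -0.012, -0.024 and -0.055), and differently numbered ones had correlations from -0.0084 to 0.035. Deviations within a group of 3 libraries depend on each other. These values therefore cannot decide whether the labels' replicate numbers pair the samples. With the replicate block, 34 members were called, 28 higher in cRGCs and 6 in iRGCs, beside 6751 genes in all and 61 other pathway genes. The biological coefficient of variation common to all tested genes was 36.3% with 3 libraries a group. Tuba8, at no more than 1.68 CPM in any library, fell on either side of the threshold depending on the fit, with log2 fold changes from -5.77 to -2.47.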
